A study of Drosophila melanogaster with 20 samples.

Results

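The cuticular protein genes described here were the 93 genes of the count table, out of 17807 rows, whose BDGP6 gene symbol begins with Cpr, Ccp or Lcp followed by a digit. Lcp1 was not analysed here. The genes were taken by name and not by any measured value. They comprised 70 Cpr genes, 7 Ccp genes and 16 Lcp genes, and 2 of the Lcp genes, Lcp1Psi and Lcp65APsi, are annotated as pseudogenes.

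RNA came from whole bodies of 2-day-old male Drosophila melanogaster, 10 flies pooled per library, from 10 inbred lines of the Drosophila Genetic Reference Panel, a set of lines derived from wild-caught females. In the heat shock group, flies spent 30 minutes at 35 ± 1 °C and were frozen straight afterwards, and in the group without heat shock they were frozen at the same time. The labels class RAL69, RAL93, RAL359, RAL387 and RAL409 as beneficial and RAL195, RAL304, RAL335, RAL737 and RAL819 as detrimental, by the outcome of stress preconditioning. Each line gave 1 library per treatment, so line is the replicate, and RAL409 was left out of the tests as in the study, which left 9 lines (4 beneficial, 5 detrimental) and 18 libraries of 18.4 to 33.7 M counts. All flies were raised at 25 °C. A line is a single inbred genotype, and no library repeats a line within a treatment, so a difference between lines holds both the genotype and the pool. In whole-body RNA, fewer cells of a type and less RNA per cell cannot be told apart.

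The insect cuticle is an extracellular layer of chitin and protein that the epidermis secretes and that also lines the tracheae, the foregut and the hindgut. Most Cpr, Ccp and Lcp proteins carry the Rebers and Riddiford sequence, which binds chitin, and different members are used in soft and hard cuticle and at different moults. Lcp genes were named as larval cuticle proteins, and adult flies go on adding cuticle layers for some days after they emerge.

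Of the 93 genes, 14 averaged at least 10 RPKM without heat shock, 22 averaged 1 to 10 RPKM and 57 averaged under 1 RPKM. RPKM here is the count per kilobase of exon per 1000000 counts, scaled by TMM (trimmed mean of M values). The family stood lower than other genes in these flies: 61.3% of its genes lay under 1 RPKM, against 29.2% of all 17710 annotated genes, and 15.1% lay at 10 RPKM or more, against 36.6%. All 14 of the highest class were Cpr genes. Of the 16 Lcp genes, 15 were under 1 RPKM, and Lcp65Ag2 was the highest of them with 1.27 ± 0.51 RPKM (SD, n = 9 lines). The 7 Ccp genes reached at most 2.48 ± 3.30 RPKM, in Ccp84Ab.

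Cpr49Ae had the highest level. It had 189, 299 and 452 RPKM as the lowest, median and highest of 9 lines without heat shock, a mean of 296 ± 82.1 RPKM (SD), which was above 98.1% of annotated genes. Alone it held 29.1% of the summed RPKM of the family, the 5 highest genes held 70.0% and the 10 highest 85.7%.

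Cpr65Au came next, with 141, 186 and 249 RPKM as lowest, median and highest line, and lay below Cpr49Ae in 8 of 9 lines. Cpr92F followed with 44.5, 81.7 and 198 RPKM and lay below Cpr65Au in all 9 lines. Cpr92F and Cpr67B, at 49.2, 67.7 and 160 RPKM, were not separated, since Cpr92F was the higher in 6 of 9 lines. Cpr49Ab averaged 58.7 ± 14.98 RPKM, Cpr100A 45.6 ± 9.74, Cpr62Bb 36.0 ± 7.09, Cpr47Ef 26.3 ± 7.78, Cpr97Eb 25.8 ± 5.22 and Cpr51A 24.8 ± 5.02 RPKM (SD, n = 9). Cpr47Ef, Cpr97Eb and Cpr51A lay within one another's spread, and Cpr47Ef was above Cpr97Eb in 3 of 9 lines only.

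**Figure D1:**
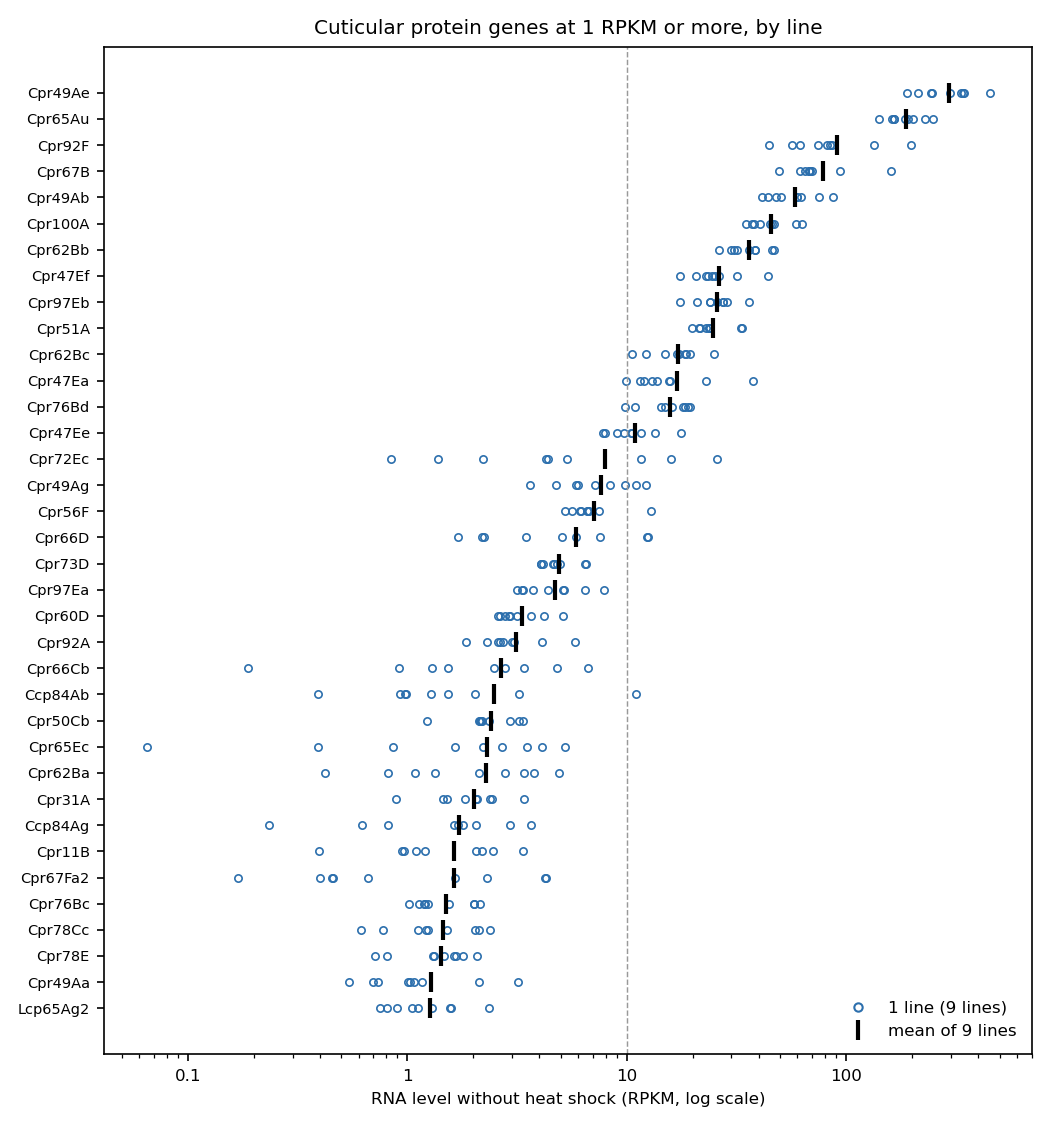
RNA level without heat shock, in RPKM on a log axis, of the 36 cuticular protein genes that averaged at least 1 RPKM, with 1 open circle per line (9 lines), a black bar for the mean and a dashed line at 10 RPKM. Cpr49Ae and Cpr65Au stand at the top, and Cpr72Ec, Cpr66D, Cpr66Cb and Ccp84Ab show the lines spread more widely than genes of like mean level.

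Neighbouring genes had very different levels. On the BDGP6 assembly, 67 of the 93 genes lay in 12 clusters of at least 3 genes with no gap over 20 kb, and high and near-silent genes stood side by side in them. The largest cluster, on chromosome arm 3L from 6130386 to 6161589, held 18 genes of the family in 31.2 kb. Cpr65Au (3L, 6131242 to 6132109, minus strand) stood there at 187.5 RPKM, while 16 of the 18 genes were under 1 RPKM. Acp65Aa, a cuticle gene outside the symbol rule, lies in the same span (6152050 to 6152745) and averaged 60.45 RPKM without heat shock. The family members nearest to Cpr65Au on each side, Lcp65Ag3 at 0.53 RPKM and Lcp65Ag2 at 1.27 RPKM, began or ended 252 and 880 bases from it on the same strand.

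In the cluster of 8 genes from Cpr49Aa to Cpr49Ah (2R, 12376626 to 12415170), Cpr49Ae (12402216 to 12405108, plus strand) had a level 579 times that of Cpr49Af, which begins 823 bases downstream on the same strand. Cpr49Ab, at 58.7 RPKM, stood between Cpr49Aa at 1.29 RPKM and Cpr49Ac at 0.73 RPKM. This cluster held 35.9% of the summed RPKM of the family and the 3L cluster 18.8%. The cluster of 7 Ccp genes (3R, 6686728 to 6704903) held 0.61%, with levels between 0.06 and 2.48 RPKM. In the 47E cluster, Cpr47Ee at 10.9 RPKM and Cpr47Ef at 26.3 RPKM lie 58 bases apart on opposite strands, and the other highly expressed gene, Cpr47Ea at 16.9 RPKM, stood beside Cpr47Eb at 0.015 RPKM.

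**Figure D2:**
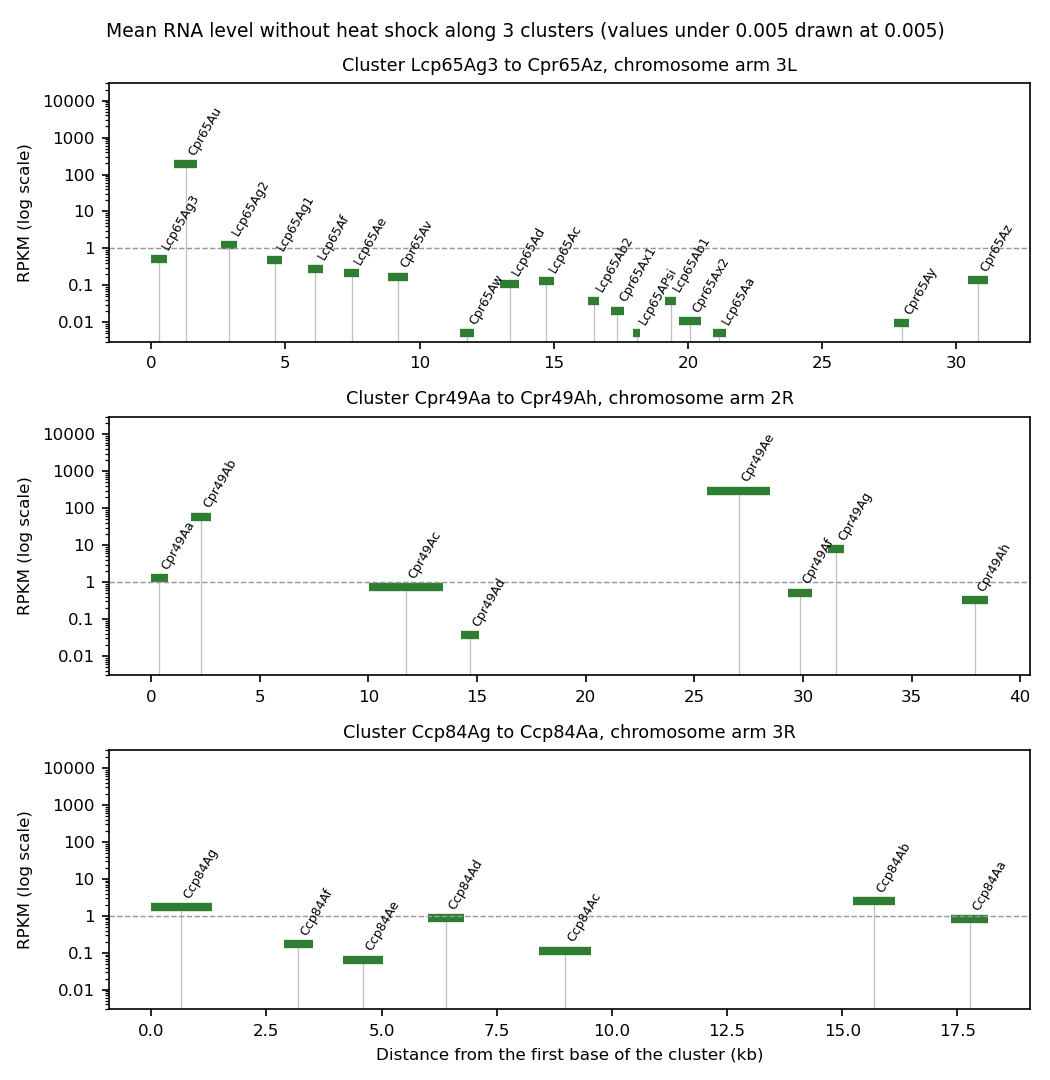
Mean RNA level without heat shock (RPKM, log axis, 9 lines) of the genes of 3 clusters against the distance in kb from the first base of each cluster, where each green bar spans a gene. Cpr65Au stands among near-silent Lcp and Cpr neighbours, Cpr49Ab and Cpr49Ae stand over the other genes of the 49A cluster, and no Ccp gene passes 2.48 RPKM. Genes outside the symbol rule, such as Acp65Aa in the 3L cluster, are not drawn.

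Near-silent genes made up a large part of the family. Of the 93 genes, 41 did not pass the filter on low counts and were not tested, and 8 had under 3 counts in each of the 20 libraries. Those 8 were Cpr57A and 7 genes of the 3L cluster, namely Lcp65Aa, Lcp65Ab1, Lcp65Ab2, Lcp65APsi, Cpr65Ax1, Cpr65Ax2 and Cpr65Ay. Cpr57A and Lcp65APsi had no count in any library. All 1488 exonic bases of Cpr57A are overlapped on the same strand by Obp57d, an odorant-binding protein gene, and how reads in both genes were counted is not given in the sources used here. Lcp65Ab1 with Lcp65Ab2, Cpr65Ax1 with Cpr65Ax2, Cpr67Fa1 with Cpr67Fa2, and the 3 Lcp65Ag genes carry numbered symbols, as copies do. Their sequences were not compared, and their values are uncertain where reads could not be assigned to 1 gene.

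Of the 52 genes that passed the filter, 38 differed among the 9 lines more than between the libraries of a line. In an edgeR quasi-likelihood test of all lines together, with Benjamini-Hochberg adjustment, these 38 passed the 0.05 threshold, which is 73.1%, against 63.6% of all 14270 genes tested. By class of level, 13 of 19 genes under 1 CPM passed (68.4%, all genes 55.7%). At 1 to 10 CPM 13 of 17 genes passed (76.5%, all genes 61.8%), and at 10 CPM or more 12 of 16 (75%, all genes 65.9%). With 16 to 19 genes per class, the gaps to the shares of all genes rest on few genes and were not tested. CPM is the count per 1000000 counts after TMM scaling, without regard to gene length. Among the 36 of these 38 genes for which a ratio could be formed, the highest line mean was 1.60 to 41.1 times the lowest. The median was 4.27 times, and 12 differed by at least 10 times. Large ratios can rest on few counts in the lowest line, both libraries together. Cpr11A (41.1 times) had 4 counts there and Ccp84Aa (32.7 times) had 5, while Cpr72Ec (24.4 times) had 91. The ratios were not computed for all genes, so no share over all genes stands beside them.

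Cpr72Ec, which encodes a protein of the corneal lens, had the smallest p among the genes averaging at least 1 CPM. With heat shock it had 11.8, 7.35, 22.6 and 1.87 CPM in the beneficial lines RAL69, RAL93, RAL359 and RAL387, and 3.10, 31.7, 6.03, 38.1 and 2.19 CPM in the detrimental lines RAL195, RAL304, RAL335, RAL737 and RAL819. Without heat shock the same lines had 6.36, 7.71, 23.0 and 1.22 CPM and 3.21, 16.8, 6.17, 37.4 and 1.99 CPM. RAL737, RAL359 and RAL304 were high and RAL387 and RAL819 low under both treatments, each class held high and low lines, and the highest line mean was 24.4 times the lowest (adjusted p = 1.43e-07, edgeR).

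Ccp84Ab was high in 1 line. RAL195 had 11.6 CPM with heat shock and 9.19 CPM without, RAL335 4.11 and 2.68 CPM, and no other of the 9 lines passed 1.74 CPM (adjusted p = 6.35e-07, edgeR). Cpr66Cb was lowest in RAL359, at 0.29 CPM with heat shock and 0.19 CPM without, on 8 and 5 counts. It was highest in RAL69, at 7.30 and 6.68 CPM (adjusted p = 0.000116, edgeR). The rest of the 9 lines lay between, from 0.92 CPM in RAL93 without heat shock to 4.81 CPM in RAL387 without heat shock. Cpr47Ef was highest in RAL387, at 108 CPM with heat shock and 97.1 CPM without, against at most 76.1 CPM in any other of the 9 lines (adjusted p = 3.83e-05), while RAL409, outside the test, had 76.8 and 88.6 CPM. Cpr67B was highest in RAL819, at 154.5 CPM with heat shock and 162 CPM without, against 120.7 CPM or less in the other 8 lines (adjusted p = 3.12e-05).

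Cpr49Ag, Cpr62Ba and Ccp84Ag completed the 8 genes with the smallest p among those averaging at least 1 CPM. Their highest line means were 3.30, 6.18 and 14.4 times the lowest, with RAL69 highest for Cpr49Ag and Cpr62Ba and RAL93 for Ccp84Ag. Among genes of lower level, Cpr67Fa2, Ccp84Aa, Cpr23B, Ccp84Ad and Lcp3 also had a smaller p than Cpr62Ba.

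**Figure D3:**
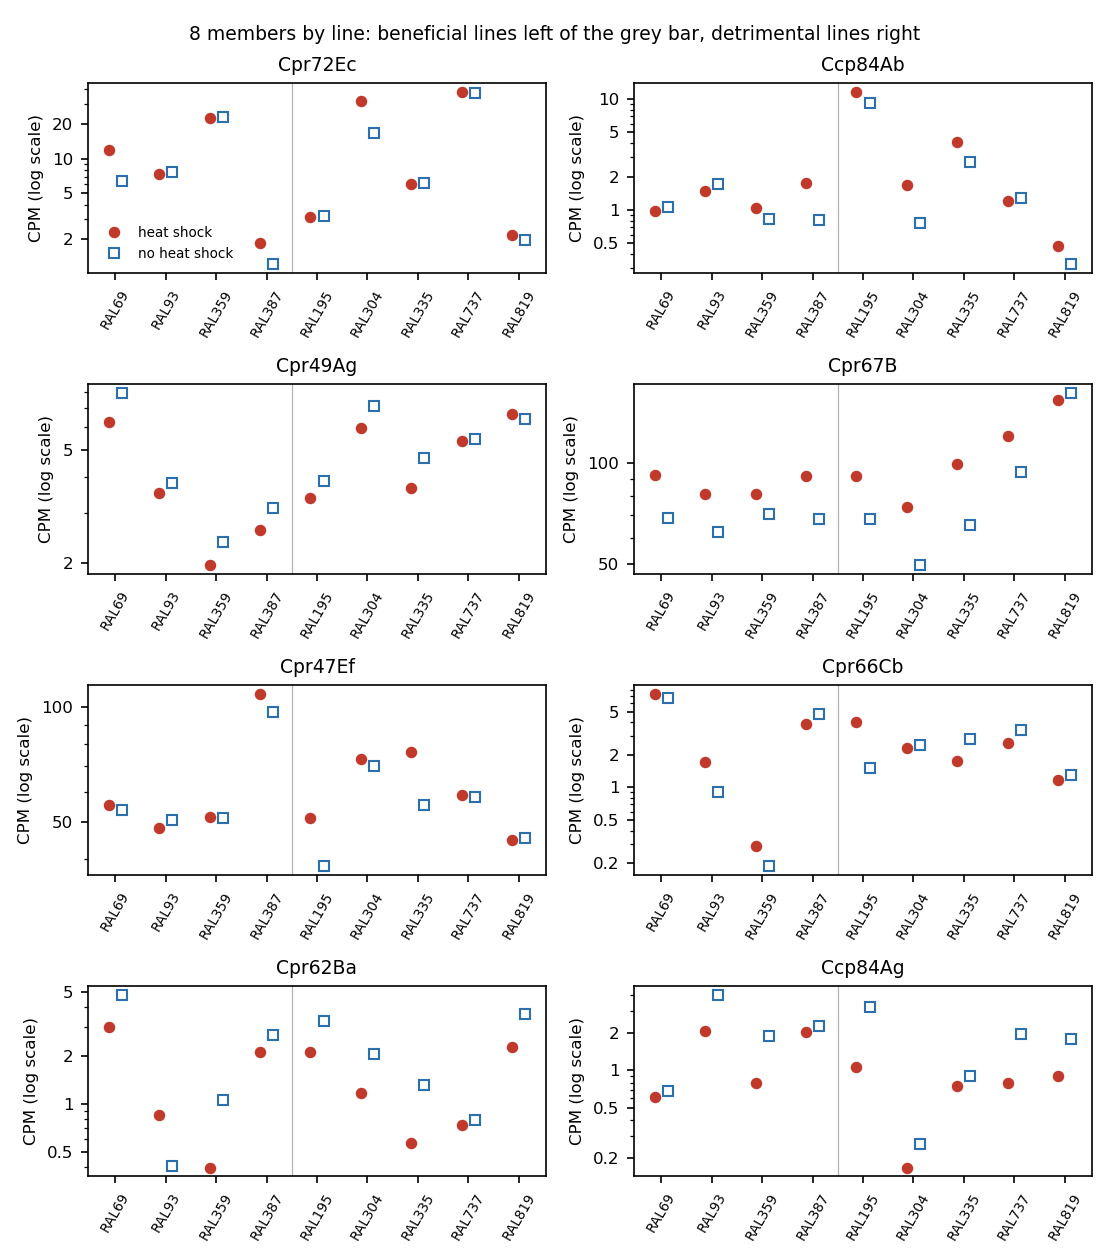
Level in CPM (log axis) of the 8 cuticular protein genes with the smallest p among lines of those averaging at least 1 CPM, with 1 filled circle (heat shock) and 1 open square (no heat shock) per line. Circle and square of a line lie close together compared with the distances between lines, as in Cpr72Ec, where RAL737 has 38.1 and 37.4 CPM and RAL387 1.87 and 1.22 CPM.

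Of the 10 genes with the highest levels, 7 differed among lines and Cpr65Au, Cpr49Ab and Cpr100A did not pass (adjusted p = 0.115 for Cpr65Au and 0.190 for Cpr49Ab). A further 8 genes had at least 1 CPM in a line without heat shock and under 3 counts in another. Cpr23B had 3.81 CPM in RAL304 and 2.43 CPM in RAL819, 0.49 CPM or less in the other lines and no count in RAL93. Cpr11A had 3.62 CPM in RAL387 and no count in RAL737. Lcp3, a larval cuticle protein gene, had 2.64 CPM in RAL69 and at most 0.48 CPM in the other lines. Ccp84Ad had 2.28 CPM in RAL359 and 2.16 CPM in RAL195, and 0.49 CPM or less elsewhere. Cpr49Af, Cpr64Ac, Cpr65Ec and Cpr76Bb were the others.

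A smaller share of the family than of all genes was called with heat shock, and what was called depended on whether each line was compared with itself. The shares are not matched for level: 19 of the 52 genes averaged under 1 CPM, against 1562 of all 14270 genes tested. In the edgeR fit without a block for line, 0 of 52 genes passed, against 17.9% of all 14270 genes (8.29% higher and 9.61% lower). At an unadjusted p under 0.05 there were 6 of the 52 genes, against 27.6% of all genes. DESeq2 called 2 (Cpr64Ad higher and Cpr49Ac lower), against 2879 of all 14270 genes, and limma-voom called 2, both higher, against 2592. The smallest adjusted p was 0.05002, for Cpr49Ac. The median log2 change of the 52 genes was 0.06, against 0.00 over all genes tested, and it turned to -0.15 with library totals as the scaling, against -0.19 over all genes.

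With line as a block, which compares the 2 libraries of each line, 13 of 52 genes passed, or 25%, against 35.3% of all genes. Of these, 5 rose, which is 9.62% against 16.3% of all genes, and 8 fell, which is 15.4% against 18.9%. The 13 genes are outside the rule for naming, which took calls of the fit without the block, and they are named after their values were seen. For each of the 13 the heat shock and control libraries overlapped when lines were disregarded. In 9 of 9 lines, 2 genes were higher with heat shock (3.85% of the 52, all genes 10.4%) and 1 was lower (1.92%, all genes 11.7%).

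Among the 52 genes tested, Cpr64Ad had the largest rise with the block. It had 0.40, 1.15 and 1.64 CPM as lowest, median and highest line with heat shock, against 0.16, 0.48 and 1.22 CPM without. It was higher with heat shock in all 9 lines, although the groups overlapped, and its log2 change was 1.118 ± 0.210 (SE; adjusted p = 0.00119 with the block and 0.0529 without). Cpr64Aa, at the other end of the 64A cluster of 8.58 kb, had 0.42, 0.68 and 1.80 CPM with heat shock, against 0.12, 0.45 and 0.97 CPM without, and rose by 0.95 ± 0.27 (adjusted p = 0.0159 with the block and 0.131 without; 8 of 9 lines). Both lie within the span of CG43367, which is on the plus strand like Cpr64Ad, with no exonic overlap on that strand. The library kit keeps strand, but the counting is not stated to have used it. Other genes of the family also overlap the span of a gene on the opposite strand, among them Cpr65Au (asRNA:CR46005), Cpr51A (CG30197) and Cpr50Ca (S-Lap7). Cpr30B did not pass the count filter and is named after its values were seen: it averaged 0.35 ± 0.19 CPM with heat shock, against 0.06 ± 0.06 CPM without (SD, n = 9), was higher in 9 of 9 lines, and was called in both fits without the filter or when RAL359 or RAL387 was left out.

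Cpr66D, the second corneal lens gene of the family, had 7.23, 12.3 and 15.9 CPM as lowest, median and highest line with heat shock, against 1.87, 5.58 and 13.8 CPM without. The lines lay close together with heat shock and far apart without it. RAL335, RAL195 and RAL387, the 3 lowest without heat shock at 1.87, 2.42 and 2.48 CPM, had 7.92, 7.23 and 7.29 CPM with it, while RAL69 and RAL304, the highest without at 13.7 and 13.8 CPM, had 13.8 and 15.9 CPM. The log2 change was 1.00 ± 0.20 (SE; adjusted p = 0.0019 with the block and 0.148 without), and 9 of 9 lines were higher.

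Cpr67B was the only gene among the 10 highest that was called higher with the block. It had 73.9, 91.9 and 154.5 CPM with heat shock, against 49.7, 68.4 and 162 CPM without, and was higher in 8 of 9 lines, the exception being RAL819. Its log2 change was 0.37 ± 0.06 (SE; adjusted p = 0.000722 with the block and 0.288 without). Ccp84Aa, at 0.55 CPM as the median with heat shock and 0.37 CPM without, rose by 0.66 ± 0.24 with the block (adjusted p = 0.0491) and was higher in 6 of 9 lines.

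Among the 8 genes that fell, Ccp84Ag was lower in all 9 lines. It had 0.17, 0.80 and 2.08 CPM with heat shock, against 0.26, 1.87 and 4.01 CPM without, a log2 change of -0.85 ± 0.17 (SE; adjusted p = 0.00181 with the block and 0.202 without). Cpr62Bb had 15.1, 30.4 and 41.3 CPM with heat shock, against 26.0, 35.8 and 46.5 CPM without, and changed by -0.32 ± 0.08 (adjusted p = 0.0052 with the block; lower in 8 of 9 lines). Its neighbour Cpr62Ba changed by -0.56 ± 0.18 (adjusted p = 0.0259 with the block). The neighbouring Cpr62Bc did not pass in either fit.

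Cpr65Au and Cpr100A were the other 2 of the 10 highest that were called lower with the block. Cpr65Au had 44.5, 83.3 and 106 CPM with heat shock, against 74.2, 97.7 and 131 CPM without. The lowest heat shock value was that of RAL359, whose library without heat shock had 101 CPM, and the change was -0.33 ± 0.11 (adjusted p = 0.0279 with the block and 0.140 without). Cpr100A changed by -0.32 ± 0.11 (adjusted p = 0.0395 with the block), Cpr50Ca by -0.43 ± 0.13 (0.0263) and Cpr49Ag by -0.20 ± 0.07 (0.048). Cpr49Ac changed by -0.95 ± 0.29 (adjusted p = 0.0205 with the block), with RAL93 at 0.45 CPM with heat shock, against 5.64 CPM without, and the other lines between 0.34 and 1.09 CPM with heat shock, against 0.61 to 1.69 CPM without.

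The remaining genes of high level did not pass in either fit. Cpr49Ae had 171, 408.5 and 527 CPM with heat shock, against 224, 354 and 536 CPM without, a log2 difference of -0.05 ± 0.14 with the block (adjusted p = 0.8289). Cpr92F gave -0.34 ± 0.21 (adjusted p = 0.231). Its values with heat shock ran from 28.7 CPM, in RAL359, to 235 CPM, in RAL304, against 82.8 to 367 CPM without.

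**Figure D4:**
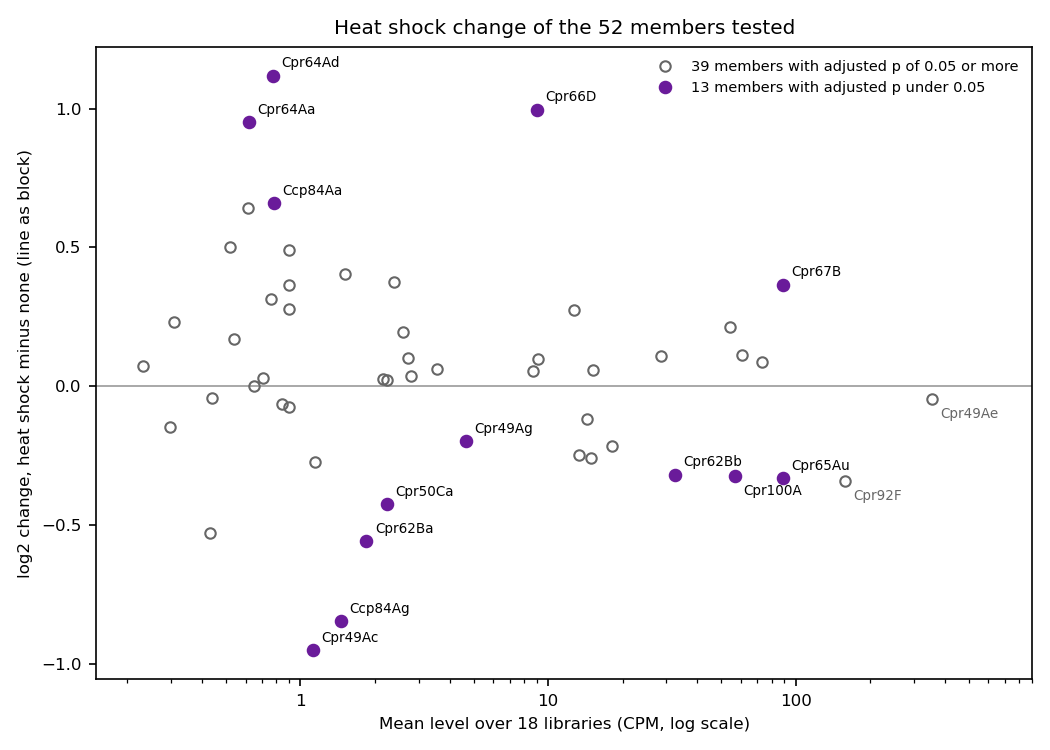
The log2 change with heat shock (heat shock minus none, line as block) of the 52 cuticular protein genes tested, against their mean level over 18 libraries in CPM on a log axis, with filled points for the 13 genes at an adjusted p under 0.05. The largest changes, in Cpr64Ad, Cpr66D, Cpr64Aa and Cpr49Ac, belong to genes under 10 CPM, and Cpr49Ae at the far right lies near 0.

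**Figure D5:**
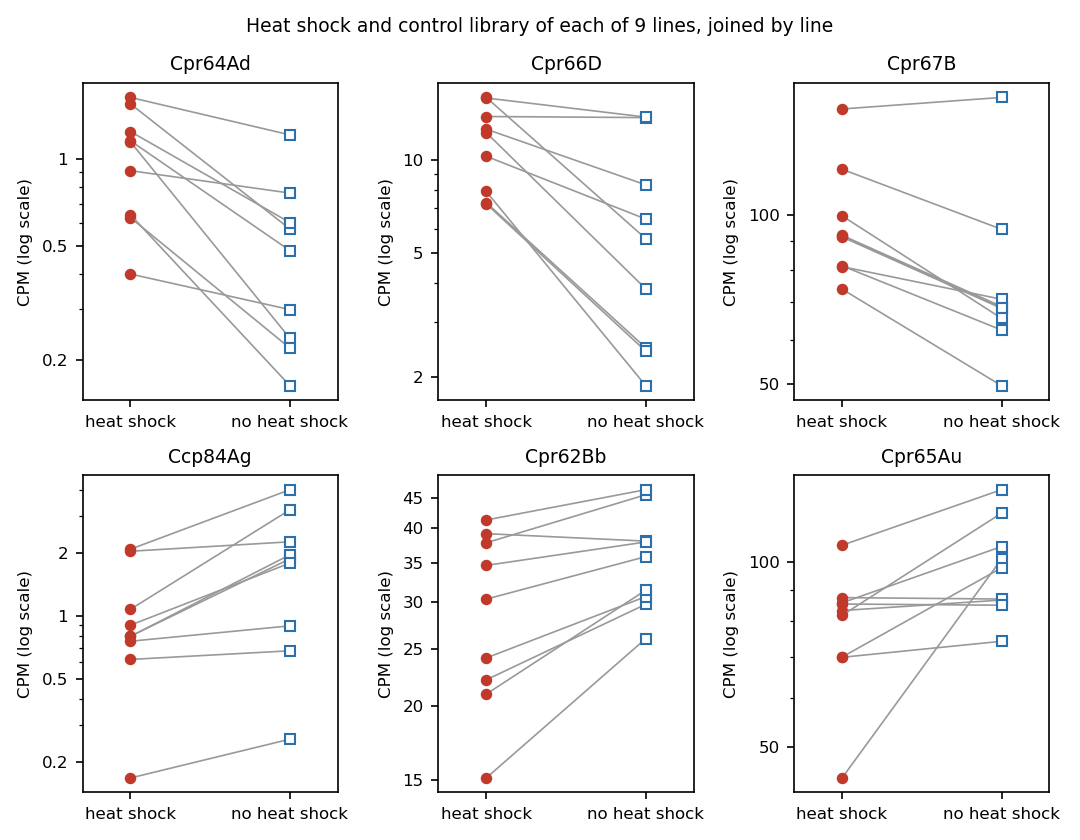
Level in CPM (log axis) of 6 genes in the heat shock library (filled circle) and the control library (open square) of each of 9 lines, joined by line. Cpr64Ad and Cpr66D are higher with heat shock and Ccp84Ag lower in all 9 lines, while the ranges of the groups overlap in every panel.

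Of the 13 calls, 5 (Cpr64Ad, Cpr66D, Cpr67B, Ccp84Ag and Cpr62Bb) held under all 17 alternatives run with the block. The other 8 each lost their call when single lines were left out, and their direction did not change. With all 9 lines kept, Cpr49Ag was also lost with DESeq2, RLE scaling, the length offset, no count filter or RAL409 included, Ccp84Aa with DESeq2, library totals, no count filter or RAL409 included, and Cpr100A with the length offset or RAL409 included. Cpr49Ac was lost without RAL304 (adjusted p = 0.0505), Cpr64Aa without RAL93 (0.0502), Cpr65Au without RAL195, RAL737 or RAL819 (0.0538 to 0.0665) and Cpr50Ca without RAL69, RAL93, RAL304 or RAL335 (0.0516 to 0.0835). Cpr62Ba was lost without RAL69, RAL304, RAL335, RAL387 or RAL819 (0.051 to 0.102). Ccp84Aa, Cpr100A and Cpr49Ag were lost without 6, 6 and 8 of the 9 lines (up to 0.136). Scaling by library totals moved the median log2 change of all genes to -0.19, and with the block it gave 4 rises (7.69%, all genes 7.25%) and 13 falls (25%, all genes 49.5%). Without the block it gave 0 rises (all genes 4.88%) and 5 falls (9.62%, all genes 29.7%).

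Together the 93 genes took 0.107 ± 0.024% of all counts with heat shock, against 0.125 ± 0.023% without (SD, n = 9 lines), and the share was lower with heat shock in 6 of 9 lines. Without the mitochondrial and heat shock genes in the total it was lower in 5 of 9 lines. RAL737 without heat shock had the highest share, 0.183%, and was the highest of the 9 lines for 12 of the 52 genes. RAL359 with heat shock had the lowest share, 0.0739%, and was the lowest of the 9 lines for 16 of them. For how many of all genes these libraries were highest or lowest was not counted, so the 12 and 16 are not read as particular to the family. RAL819 with heat shock had 0.0764%. The RAL359 library also had the steepest trend of counts on gene length among the 18, a log2 slope of 0.124, and with an offset for length the fit with the block called 5 rises and 7 falls, against 5 and 8 without it.

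The beneficial and detrimental lines were not separated by any cuticular protein gene. With heat shock 0 of 49 genes passed in edgeR (0% of all 13877 genes), and without heat shock 0 of 47 (0% of all 13770 genes). At an unadjusted p under 0.05 there were 4 of 49 genes with heat shock, against 4.4% of all genes. Without heat shock there were 3 of 47, against 4.18% of all genes. DESeq2 and limma-voom also called 0 of these genes in both comparisons. They had 5 and 2 of these genes at an unadjusted p under 0.05 with heat shock and 3 and 1 without. Over all genes DESeq2 called 11 of 13877 with heat shock and 17 of 13770 without, and limma-voom called 0 in both. Differences of the size seen between single lines fell within classes: without heat shock Cpr23B had 0.46, 0, 0.075 and 0.41 CPM in the beneficial lines, against 0.095, 3.81, 0.49, 0.38 and 2.43 CPM in the detrimental lines. Its log2 difference was -2.57 ± 1.14 without heat shock and -1.79 ± 0.74 with it (SE; edgeR, unadjusted p = 0.048 and 0.0361, adjusted p = 0.999 for both).

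Cpr76Bd, with the smallest unadjusted p with heat shock, had 62.0, 81.3, 51.6 and 66.9 CPM in the beneficial lines, against 83.9, 90.3, 77.9, 87.1 and 72.1 CPM in the detrimental lines. The classes overlapped, and the log2 difference was -0.33 ± 0.13 (edgeR, adjusted p = 0.999). Cpr65Ec with heat shock, at 1.14 ± 0.51, and Cpr49Af and Cpr11A without, at -1.51 ± 0.62 and 2.04 ± 0.90, were the next and had adjusted p of 0.999. In the authors' deposited tables, which test the same contrasts, no member had an adjusted p under 0.1, and the smallest were 0.757 with heat shock and 0.784 without, both for Cpr23B.

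The heat shock responses of the classes did not differ for any gene of the family either. In edgeR 0 of 52 passed without the block and 0 with it (0% of all genes in both). At an unadjusted p under 0.05 there was 1 of 52 genes without the block, against 0.294% of all genes. With the block there were 2, against 2.37% of all genes. DESeq2 and limma-voom also called 0 of the 52 in both, with 1 and 0 at an unadjusted p under 0.05 without the block and 1 and 3 with it. Over all 14270 genes DESeq2 called 0 without the block and 1 with it, and limma-voom called 0 in both. Without the block Cpr49Ac had the smallest p, with a difference of responses of -1.62 ± 0.76 (edgeR, adjusted p = 1), and this difference holds the RAL93 value without heat shock given above. With the block Cpr47Ea had the smallest, at -0.58 ± 0.24 (edgeR, adjusted p = 1.00).

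Other genes of the cuticle were tested in the same fits, in which 8.29% of all genes were higher and 9.61% lower without the block, and 16.3% and 18.9% with it. Of 15 Tweedle genes tested, which encode a separate class of chitin-associated cuticle proteins, 3 rose in the fit without the block: TwdlU averaged 1.13 ± 0.19 CPM with heat shock, against 0.20 ± 0.09 CPM without, and TwdlF and TwdlW changed by 2.14 ± 0.43 and 1.40 ± 0.31 on the log2 scale (SE; edgeR, adjusted p = 0.0016 and 0.00332). Of 12 further cuticle genes, 3 rose: Edg91 by 3.11 ± 0.43, the pupal cuticle protein gene Pcp by 2.39 ± 0.37 and Edg78E by 0.87 ± 0.27. These 6 genes averaged 0.12 to 0.48 CPM without heat shock. Of the 8 obstructor and peritrophin genes tested, which bind chitin, obst-H and obst-E rose and obst-A fell. With the block 3 Tweedle genes rose and 2 fell, 5 of the further cuticle genes rose and 0 fell, and 3 obstructor and peritrophin genes rose and 1 fell.

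Of the 14 chitin synthesis and assembly genes tested 1 rose and 2 fell, and of 16 chitinase genes Cht5, a moulting chitinase, rose by 2.24 ± 0.27 (16.3 ± 5.99 CPM with heat shock, against 3.43 ± 1.13 CPM without) and Cht11 fell. Of 18 tanning genes 2 rose and 3 fell: ple, which encodes tyrosine hydroxylase, averaged 47.0 ± 9.02 CPM with heat shock, against 81.9 ± 23.9 CPM without, and ebony (e) 27.7 ± 6.86 CPM against 41.1 ± 8.44 CPM. Of 18 ecdysone and moulting genes 4 rose, among them Eip75B at 153 ± 16.8 CPM with heat shock, against 69.3 ± 9.40 CPM without, and Kr-h1 fell. Of 11 genes for apical matrix proteins dpy and zye rose. Of 7 cuticular hydrocarbon genes Cyp4g1 rose. With the block 2 chitin synthesis genes rose and 2 fell, 5 chitinase genes rose and 3 fell, and 5 tanning genes rose and 3 fell. Of the ecdysone genes 8 rose and 1 fell, of the apical matrix genes 4 rose and 0 fell, and of the hydrocarbon genes 1 rose and 1 fell.

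The genes of the other 2 known proteins of the corneal lens, Crys and Retinin, are given for that role. Crys averaged 9.47 ± 4.23 CPM with heat shock, against 10.4 ± 5.15 CPM without, and did not pass (adjusted p = 0.878, edgeR). Retinin averaged 322 CPM with heat shock, against 236 CPM without, and rose with the block only (0.45 ± 0.10, adjusted p = 0.0036). Of 14 lens and eye genes tested 1 rose without the block, Rh4, and 5 with it.

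Markers of other cell types and of sex showed the following. All 13 heat shock genes tested rose, with summed levels of 77680 to 120400 CPM with heat shock, against 1038 to 1303 CPM without. Of 10 trachea and epidermis genes vvl and shg fell without the block, with list sums of 166 to 211 CPM with heat shock, against 205 to 242 CPM without. With the block 2 genes of this list rose and 2 fell. Of 10 hemocyte genes srp and crq fell, of 8 fat body genes bmm rose and FASN1 fell, of 9 neuron genes Syx1A rose, and of 11 male genes lncRNA:roX1 fell, while 0 of 16 muscle, 0 of 9 gut and 0 of 2 female genes tested passed with edgeR, DESeq2 or limma-voom, and 0 were at an unadjusted p under 0.05 (with the block 0, 1 and 0 passed). With the block 0 hemocyte genes rose and 3 fell, 2 fat body genes rose and 3 fell, 2 neuron genes rose and 0 fell, and 0 male genes rose and 1 fell. Of 8 female marker genes 4 (Vm26Aa, Cp36, Cp38 and osk) averaged under 0.1 CPM without heat shock. The 11 male genes summed to 4157 to 5819 CPM without heat shock. The 6 larval fat body genes did not pass (0 of 6 in both fits and with DESeq2 or limma-voom, and 0 at an unadjusted p under 0.05 without the block), and their sum ran from 5.73 to 104.5 CPM with heat shock, against 8.33 to 134 CPM without. The part of these markers in the changes of the cuticular protein genes was not tested.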

How the data were processed

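Per the labels, stranded mRNA libraries were made from pooled male flies. The authors deposited whole-number counts per FlyBase gene. The submitters' processing notes name BDGP6, Bowtie2 2.2.9, SAMtools 1.12 and DESeq2 1.28.1. The counting tool is not given in the sources used here. The deposited tables of the class comparisons hold, per the file headers, the authors' log2 ratios and p-values, a mean normalised count (a signal value) and a test statistic (a score), and the last 2 were not used. Symbols, positions and exon lengths came from the BDGP6 annotation of Ensembl release 115, in which 17710 rows matched and 97 did not.

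Counts were tested with edgeR 4.0.16 in R 4.3.3 (filterByExpr, TMM, quasi-likelihood, Benjamini-Hochberg over all genes, threshold 0.05), without a block for line, as the study states none. Lines pair the libraries, because both libraries of a line share 1 inbred genotype: their deviations from the group means correlated at 0.547 to 0.80, against at most 0.118 with any other line. P-values of the fits without the block are read against the spread between lines. Those of the fits with the block and of the test among lines are read against the spread left after line and treatment are fitted. That spread holds pool-to-pool error and any difference between lines in the heat shock response. Standard errors were taken from the log2 change and its F value. In data simulated for this design, 69.7% of genes changed 2-fold with heat shock were called without the block, and 90.9% with it. For a 2-fold difference between the classes without heat shock, 59.1% were called. The changed genes were drawn from all genes past the filter, with no difference between lines in the response. These rates are therefore not those of the cuticular protein genes. Alternatives were DESeq2 1.42.0, limma-voom (limma 3.58.1), other scalings, no filter, a threshold of 0.1, RAL409 included and each line left out; the length offset, the fit without RAL359 and RAL387 and the repeats with the block were added after seeing the data.

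Genes were named by level (10 highest), by smallest p (8 among lines, of those averaging at least 1 CPM, 3 per class test and for the difference of responses without the block), as heat shock calls averaging at least 1 CPM, or as high in 1 line and under 3 counts in another. The genes, lists and rules were chosen with earlier results of these data known.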

Additional observations from a re-analysis of the deposited data

Results flagged for a closer look

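Single lines stood apart from the others of their class and treatment for 14 gene values and 1 summed value, out of 120 groups of 4 or 5 lines examined. Chance flags about 1 in 20 such groups, but some of these genes were named for their spread among lines, so the number is not read against that share.

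In RAL195, among the detrimental lines, Ccp84Ad had 3.30 CPM with heat shock, against at most 0.42 CPM in the other 4, and 2.16 CPM without, against at most 0.49 CPM. Ccp84Ab, from the same cluster, had 9.19 CPM in RAL195 without heat shock, against at most 2.68 CPM in the other detrimental lines. Ccp84Ad had 2.28 CPM in RAL359 without heat shock, against at most 0.15 CPM in the other beneficial lines.

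In RAL387, among the beneficial lines, Cpr47Ef had 108 CPM with heat shock and 97.1 CPM without, against at most 55.5 and 53.9 CPM in the others, and Cpr11A had 2.61 CPM with heat shock, against at most 0.69 CPM. In RAL69, Cpr49Af had 0.62 CPM with heat shock, against at most 0.18 CPM, and Lcp3 had 2.64 CPM without, against at most 0.48 CPM. In RAL93, Cpr49Ac had 5.64 CPM without heat shock, against at most 1.37 CPM.

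In RAL737, among the detrimental lines, Cpr92F had 367 CPM without heat shock, against at most 152 CPM, Cpr51A had 21.9 CPM without, against at most 15.5 CPM, and Cpr65Ec had 1.53 CPM with heat shock, against at most 0.57 CPM. The share of all counts taken by the 93 genes was 0.183% in RAL737 without heat shock, against at most 0.123% in the other detrimental lines. In RAL304, Cpr64Ac had 1.14 CPM without heat shock, against at most 0.45 CPM.

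RAL409, which took no part in the tests, had 6 of the 93 genes above all 9 other lines under both treatments. The share of all genes for which this holds was not computed, so the number is not read as particular to the family. Of the 6 genes, 3 had at least 1 CPM under both treatments. Of the other 3, Lcp1Psi and Cpr47Eg stayed under 1 CPM, and Cpr67Fb had 0.75 CPM with heat shock and 1.64 CPM without. Cpr12A had 1.58 CPM with heat shock and 1.07 CPM without, against at most 0.079 and 0.038 CPM elsewhere, on 46 and 28 counts. Lcp2 had 1.20 and 1.18 CPM, against at most 0.36 and 0.48 CPM. Cpr11B had 2.77 and 3.58 CPM, against at most 2.76 and 2.75 CPM.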

How the results depend on the processing

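Without the block, the count of cuticular protein genes that rose with heat shock was 0. It was 1 with DESeq2, RAL409 included, a threshold of 0.1 or the length offset (Cpr64Ad), and with no count filter or RAL359 and RAL387 left out (Cpr30B, which did not pass the filter otherwise). It was 2 with limma-voom and 0 to 2 when each line was left out (2 without RAL819, 1 without RAL69, RAL304, RAL359 or RAL387). The count that fell was 0. It was 1 with DESeq2, a threshold of 0.1, or RAL359 and RAL387 left out, 5 with library totals and 0 to 1 with each line left out (1 without RAL69 or RAL387). With line as replicate block the counts were 5 and 8, and with the block and the length offset 5 and 7. With the block, library totals gave 13 falls, the fit without RAL359 and RAL387 gave 5, and leaving out each line gave 4 to 8. Leaving out RAL304 or RAL335 gave 4, and RAL69, RAL737 or RAL819 gave 5. The cause was not tested, and a fit that leaves out lines has fewer libraries. The pairing moved no other count past 1.5 times.

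No count or named gene reversed. The median log2 change of the members, 0.06, turned to -0.15 under library totals, with 15 genes above 0 and 37 below. The counts among lines, between classes and for the difference of responses stayed within 1.5 times under each alternative run. For genes under 1 CPM, the small number of counts per library limits the precision.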
